A study of Mus musculus with 18 samples.

Results

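The myogenic regulatory factors are the transcription factors that commit cells to the skeletal muscle lineage and then switch on muscle genes. They were taken here as 7 genes chosen by symbol: the MyoD family (*Myod1*, *Myf5*, *Myog* and *Myf6*), the homeobox factors *Pax7* and *Six4*, and the E protein *Tcf12*. Earlier results of these data were known when they were chosen. Of the 7, 6 were found among the 19153 genes of the processed files and all 6 were tested among 17672 genes, while *Pax7* was not analysed here. They were measured in immortalized myoblasts from a p53 knockout mouse, so that all groups, controls included, lack p53. The wildtype cells (WT) had received Cas9 with an empty vector and the LAP2α knockout cells (KO) Cas9 with a sgRNA against LAP2α, a nucleoplasmic partner of lamin A/C. Both were bulk-sorted for EGFP in 2 rounds and are pools of cells of 1 immortalized line, not clones. RNA was sequenced from proliferating cells (Prol) and from cells that had reached confluence (D0), both in 20% serum. Cells kept for 48 h in 5% serum (D2) were sequenced too, with 3 libraries in each of the 6 groups. Comparisons of D2 with Prol or D0 thus combine the change of serum with time, and those with Prol also a change of cell density.

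MyoD and Myf5 mark myoblasts and open muscle genes, myogenin (*Myog*) drives their entry into terminal differentiation, and MRF4 (*Myf6*) acts mainly in maturing fibres. The 4 proteins are basic helix-loop-helix factors that bind E-boxes, of the form CANNTG, as dimers with E proteins such as HEB, the product of *Tcf12*. Homeobox factors such as *Six4* bind MEF3 sites and, with MyoD family members and MEF2 factors, act on the *Myog* promoter, and Id proteins hold E proteins back from these dimers.

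*Myog* lies on chromosome 1 of GRCm38 from 134289989 to 134292548 on the plus strand, *Myod1* on chromosome 7 from 46376474 to 46379099 on the plus strand, and *Six4* on chromosome 12 from 73099609 to 73113456 on the minus strand (GENCODE M21). *Myf5* (107482908 to 107486134) and *Myf6* (107492853 to 107494737) are neighbours on the minus strand of chromosome 10 and do not overlap. *Tcf12* lies on the minus strand of chromosome 9 from 71842688 to 72111871. It has 21 annotated transcripts and overlaps 4 other genes of the files on its own strand (A430027C01Rik, Gm37663, Gm38057 and Gm38111), so its level is uncertain where reads could be divided between them. RefSeq promoter windows (GRCm38.p6) were matched for 5 of the 7 genes. Those of *Myog*, the gene that changed most, and *Myf5*, the family member with the highest level before differentiation, are shown up to the base before the annotated transcript, with E-boxes (CANNTG) and the MEF3 core (TCAGGTT) in capitals. Both motifs were searched on both strands.

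*Myog*, chr1:134289754-134289988, plus strand: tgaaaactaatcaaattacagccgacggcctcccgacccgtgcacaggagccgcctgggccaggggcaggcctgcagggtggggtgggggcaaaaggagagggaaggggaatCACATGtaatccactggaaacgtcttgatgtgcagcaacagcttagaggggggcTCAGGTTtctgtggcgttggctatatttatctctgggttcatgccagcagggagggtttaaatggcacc

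*Myf5*, chr10:107486135-107486384, minus strand: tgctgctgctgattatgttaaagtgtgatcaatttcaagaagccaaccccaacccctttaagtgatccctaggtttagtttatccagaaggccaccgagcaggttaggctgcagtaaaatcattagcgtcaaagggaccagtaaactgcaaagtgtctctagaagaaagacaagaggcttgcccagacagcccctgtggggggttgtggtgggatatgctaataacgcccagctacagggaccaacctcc

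The *Myog* stretch held 1 E-box, CACATG, which starts 138 bases before the RefSeq start, and 1 MEF3 core, TCAGGTT, 84 bases before it, and the motifs did not overlap. The whole 250 bases before the RefSeq start of *Myog* held 2 E-boxes. The *Myf5* stretch held neither motif. Over 32851 promoter windows of 250 bases, 66.2% held an E-box and 3.5% the MEF3 core, so the E-box is common in any such window.

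The libraries held 26437823 to 41619014 expected counts. The values are CPM, counts per 1000000 of the scaled library total, with 0.5 added to each expected count. The scaling factors were 0.909 and 0.931 in replicate 1 of WT D2 and KO D2 and 1.11 to 1.18 in the other 4 D2 libraries. The knockout cannot be read from *Tmpo*, which encodes LAP2α with other isoforms and was at 300, 266 and 138 CPM in WT and at 246, 225 and 120 CPM in KO cells at Prol, D0 and D2 (means, n = 3), because its transcripts are counted together. *Trp53* was also counted, at group means of 44.5 to 136 CPM, which does not check the p53 deletion. The myoblast label was checked on 6 markers. In WT Prol *Ncam1* was at 139 and *Vcam1* at 94.0 CPM, while *Itga7* (4.97), *Des* (3.44), *Cdh15* (1.92) and *Cav3* (0.0787) were low. Of 8 fibroblast markers 7 were listed, and their summed level was 37.8 to 92.6 CPM in WT Prol and 36.8 to 71.1 in KO Prol, with *Pdgfra* at 25.1 and *Dcn* at 0.213 CPM in WT. Endothelial markers summed to at most 2.46 CPM in any library, and of 5 blood and macrophage markers *Cd68* alone was listed, at 0.908 to 3.22 CPM.

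To show which family members dominate in each state, CPM were divided by the length of the exons, which allows levels to be compared between genes. In WT Prol *Myf5* had the highest level, 11.8 ± 1.72 CPM per kb (SD, n = 3), followed by *Tcf12* (8.54 ± 0.828), *Six4* (3.67 ± 0.0528), *Myod1* (1.39 ± 1.04), *Myog* (0.522 ± 0.313) and *Myf6* (0.152 ± 0.0860). In WT D2 the order was *Myog* (263 ± 90.9 CPM per kb), *Myod1* (47.8 ± 5.60), *Tcf12* (10.4 ± 1.40), *Myf5* (8.45 ± 2.53), *Six4* (4.13 ± 0.619) and *Myf6* (0.483 ± 0.305). *Myog* and *Myod1* thus went from near the bottom of the list to its top. The place of *Tcf12* depends on the length used, because with its longest transcript it was at 21.1 CPM per kb in WT Prol, above *Myf5*. The 4 MyoD family genes have 1 annotated transcript each, and their levels did not depend on this choice.

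Within the MyoD family, *Myf5* made up 85.4 ± 4.02% of the summed CPM per kb in WT Prol and 80.9 ± 7.24% in KO Prol (SD, n = 3). At D0 its share was 82.2 ± 9.10% in WT and 79.7 ± 6.05% in KO cells. At D2 *Myog* held 81.4 ± 4.52% in WT and 76.1 ± 5.18% in KO cells, and the share of *Myf5* was 2.96 ± 1.59% and 5.98 ± 3.66%. The share of *Myod1* stayed within 3.54% to 20.2% in all 18 libraries. The summed level of the family was 13.8 ± 2.32 CPM per kb in WT Prol and 13.9 ± 1.45 in KO Prol, and at D2 the 3 WT libraries were between 227 and 416 and the 3 KO libraries between 139 and 203 CPM per kb. The KO D2 libraries thus all lay below the WT D2 libraries. Among all single genes, 6.17% had KO and WT D2 libraries that did not overlap.

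**Figure D1:**
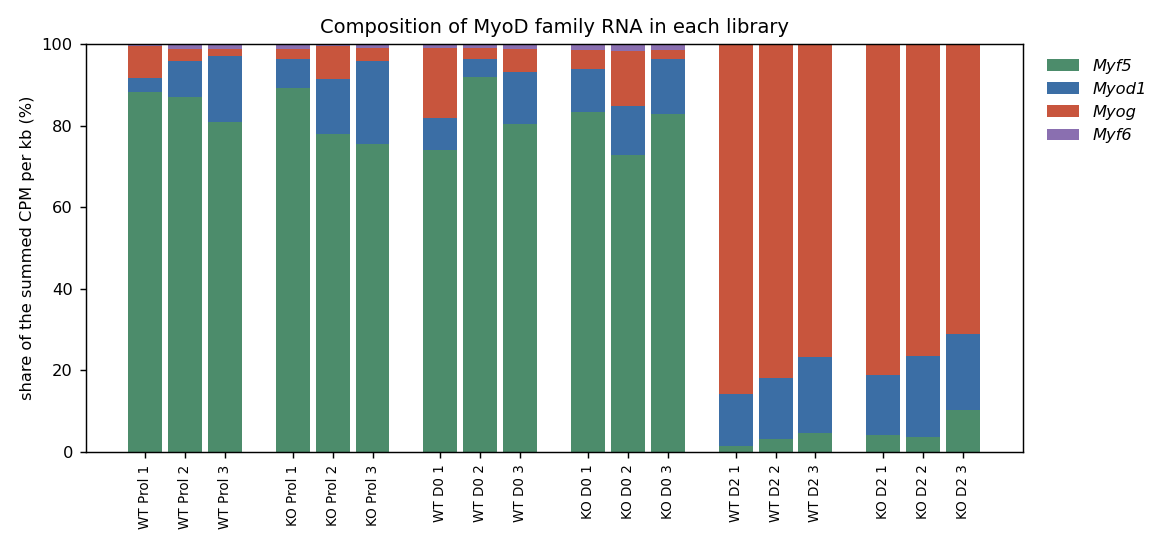
Share of each MyoD family gene in the summed CPM per kb of the 4 genes (vertical axis, in percent), with 1 bar for each of the 18 libraries. *Myf5* takes 72.7% to 92.0% of the family RNA in every Prol and D0 library, and *Myog* takes 70.8% to 85.7% in every D2 library.

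The order of the groups was then followed gene by gene. *Myog* was at 1.30, 0.652 and 0.388 CPM in the 3 WT Prol libraries and at 0.494, 1.59 and 0.716 in KO Prol (replicates 1 to 3). At D0 it was at 4.53, 0.775 and 1.23 CPM in WT and at 1.07, 3.15 and 0.50 in KO cells. At D2 it was at 532, 386 and 261 CPM in WT and at 213, 232 and 148 in KO cells. All 6 D2 libraries were far above the 12 others, and the 4 groups before differentiation overlapped. The highest of the 12 was WT D0 replicate 1.

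*Myog* rose by 9.09 on the log2 scale between Prol and D2 in WT cells (standard error 0.69, adjusted p = 3.13e-07, limma), which is 546-fold. In KO cells it rose by 7.88 (standard error 0.69, adjusted p = 1.12e-06, limma), or 235-fold. These sizes rest on 11 to 50 counts in the Prol libraries and depend on the added value, since with 1 CPM added before log2 they were 7.76 and 6.70. Against D0 *Myog* rose by 7.85 in WT (adjusted p = 1.43e-06) and 7.35 in KO cells (adjusted p = 2.81e-06, limma). In bulk RNA, more cells that express a gene and more RNA of it per cell cannot be told apart.

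*Myod1*, which acts upstream of *Myog*, was at 0.736, 2.43 and 4.61 CPM in WT Prol and at 1.72, 3.30 and 5.88 in KO Prol. At D0 it was at 2.51, 1.53 and 3.42 CPM in WT and at 3.10, 3.54 and 3.76 in KO cells, and at D2 at 99.7, 88.0 and 79.0 in WT and at 47.7, 75.2 and 48.6 in KO cells. The D2 libraries were again above all others, and the 4 groups at Prol and D0 overlapped. *Myod1* rose by 5.45 between Prol and D2 in WT cells (standard error 0.53, adjusted p = 2.05e-06) and by 4.12 in KO cells (standard error 0.53, adjusted p = 2.82e-05, limma), or 43.8-fold and 17.3-fold. Against D0 it rose by 5.23 in WT (adjusted p = 4.71e-06) and 4.01 in KO cells (adjusted p = 4.35e-05, limma).

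*Myf5*, the other early factor of the family, moved little. It was at 20.5, 27.4 and 25.7 CPM in WT Prol, at 24.2, 21.4 and 24.6 in KO Prol, at 27.0, 37.1 and 24.1 in WT D0 and at 27.4, 23.8 and 26.3 in KO D0. At D2 it was at 11.6, 19.8 and 21.4 CPM in WT and at 15.5, 14.9 and 29.6 in KO cells. Each group overlapped the next in the order of the means, but the 3 WT D2 libraries were below the 3 WT D0 libraries. The share of all genes separated in this way between WT D2 and WT D0 was not determined. The log2 fold change between D2 and D0 in WT cells was -0.77 (standard error 0.27, adjusted p = 0.0497, limma). This call was at the threshold and was lost in 6 of 8 alternative settings (adjusted p = 0.0502 to 0.174, the largest with library totals) and in 5 of the 6 fits that left out 1 library of the comparison (0.0557 to 0.203), with the smallest difference, -0.49, without WT D2 replicate 1. In KO cells the value was -0.44 (adjusted p = 0.25), and between D2 and Prol the values were -0.52 in WT (adjusted p = 0.171) and -0.30 in KO cells (adjusted p = 0.452, limma).

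*Myf6* was near the detection limit, with 2 to 38 counts in any library, and it passed the filter on low values only through KO D0 and WT D2. It was at 0.0669, 0.257 and 0.253 CPM in WT Prol, at 0.195, 0.0786 and 0.216 in KO Prol, at 0.342, 1.05 and 0.436 in WT D2 and at 0.0818, 0.401 and 0.432 in KO D2. WT D2 replicate 2 was the highest of all 18. The WT D2 libraries were above the WT Prol libraries, with counts of 11 or more against 7 or fewer. The share of all genes separated in this way was not determined. The log2 fold change between D2 and Prol was 1.72 in WT (standard error 0.69, adjusted p = 0.0709) and 0.70 in KO cells (standard error 0.69, adjusted p = 0.489, limma). In WT the adjusted p was 0.0353 with 1 CPM added, which gave a difference of 0.41, and 0.0236 without replicate 1 of both D2 groups. It was 0.0334 with a fixed replicate block and 0.0197 with voom and a random one.

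*Six4*, a homeobox factor of muscle specification, was at 39.2 to 40.2 CPM in WT Prol and 38.6 to 42.1 in KO Prol. It was at 35.6 to 45.1 CPM in WT D0, at 38.1 to 42.1 in KO D0, at 37.3 to 50.4 in WT D2 and at 42.0 to 49.7 in KO D2, so that each group overlapped its neighbours in the order of the means. The log2 fold change between D2 and Prol was 0.16 in WT (95% confidence interval -0.16 to 0.48, adjusted p = 0.471) and 0.18 in KO cells (-0.14 to 0.50, adjusted p = 0.412, limma). Replicate 1 was the highest library in 6 of 6 groups.

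*Tcf12* was at 133, 119 and 145 CPM in WT Prol, at 145, 115 and 148 in KO Prol, at 157, 86.0 and 132 in WT D0 and at 173, 88.2 and 137 in KO D0. At D2 it was at 185, 143 and 155 CPM in WT and at 189, 138 and 164 in KO cells. Replicate 2 was the lowest library in 6 of 6 groups, and every group overlapped its neighbours. The log2 fold change between D2 and Prol was 0.28 in WT (95% confidence interval -0.26 to 0.82, adjusted p = 0.456) and 0.27 in KO cells (-0.27 to 0.80, adjusted p = 0.473, limma).

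**Figure D2:**
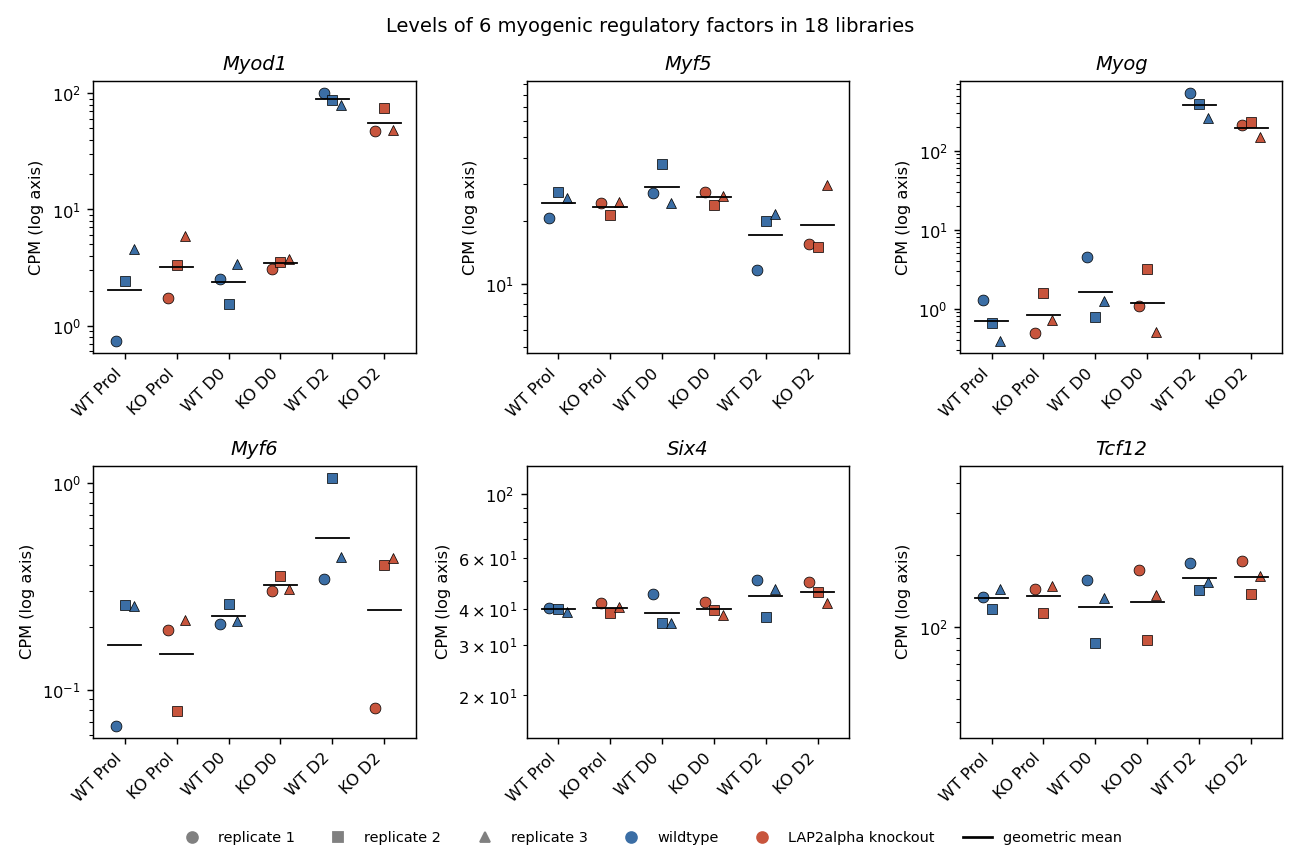
CPM of the 6 genes (log axes that differ between panels) in each library, by group (3 libraries each), with the symbol giving the replicate number and the line the geometric mean. *Myod1* and *Myog* are at least 47.7 CPM in all D2 libraries and at most 5.88 CPM in all others, while *Six4* and *Tcf12* stay within 35.6 to 50.4 and 86.0 to 189 CPM.

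Of the 6 genes, 2 rose between Prol and D2 in WT cells and 2 in KO cells, *Myog* and *Myod1* in each. Among all genes tested, 16.6% rose and 14.1% fell in WT cells by the same test, an adjusted p under 0.05, and 17.1% rose and 15.2% fell in KO cells. Against D0, 3 of the 6 genes were called in WT cells and 2 in KO cells, where 26% and 28.3% of all genes were called. Between D0 and Prol none was called in either genotype, by limma or with voom weights, and none had an unadjusted p under 0.05. Of all genes 0.00566% were called there in WT and 0% in KO cells. The largest of these D0 differences was that of *Myog* in WT cells, 1.24 (standard error 0.69, adjusted p = 1, limma), and it was 0.53 in KO cells. No separate culture is stated for the replicates, so the p-values measure the spread between these libraries, which may be technical.

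A ratio of CPM within a library does not depend on how libraries are scaled. The ratio of *Myog* to *Myod1* was 1.76, 0.268 and 0.0843 in WT Prol and 0.287, 0.481 and 0.122 in KO Prol. At D2 it was 5.34, 4.38 and 3.30 in WT and 4.48, 3.09 and 3.03 in KO cells. The D2 libraries were above the Prol libraries in both genotypes, by 3.64 in WT and 3.76 in KO cells on the log2 scale. The exact two-sided permutation p was 0.1 for each, the smallest that 3 against 3 libraries can give, and 0.15 when adjusted over the 6 ratio comparisons made. At D2 the KO and WT ratios overlapped and differed by -0.29 (exact permutation p = 0.3, adjusted 0.3). The ratio of *Myf5* to *Myod1* was 5.57 to 27.9 in WT Prol and 4.18 to 14 in KO Prol, and at D2 it was 0.116 to 0.271 in WT and 0.198 to 0.608 in KO cells. It differed by -5.97 and -4.41 between D2 and Prol (exact permutation p = 0.1 in each), and by 0.82 between KO and WT at D2 (exact permutation p = 0.3).

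KO was then compared with WT in each state. The WT and KO cells are different sorted pools, so the loss of LAP2α cannot be told apart from other differences between the pools. At D2 *Myog* was at 148 to 232 CPM in KO and at 261 to 532 CPM in WT cells, and *Myod1* at 47.7 to 75.2 and 79.0 to 99.7 CPM, so that neither gene's groups overlapped. These are 2 of the 6 genes, and of all genes 6.17% had groups that did not overlap in this comparison. The log2 fold changes were -0.96 for *Myog* (95% confidence interval -2.43 to 0.51) and -0.66 for *Myod1* (-1.80 to 0.47), and neither passed the test (adjusted p = 1 for both, limma). None of the 6 genes was called, at an unadjusted p under 0.05 either, and 0% of all genes had an adjusted p under 0.05 at D2. With the spread estimated from the 6 D2 libraries alone the unadjusted p was 0.0228 for *Myog* and 0.0288 for *Myod1*. With voom weights and a random effect for replicate it was 0.021 and 0.0448. The adjusted p ranged from 0.62 to 1 for *Myog* and from 0.768 to 1 for *Myod1* over all alternatives of the fit (limma). Without replicate 1 of both D2 groups, the libraries with the lower scaling factors, the log2 fold changes were -0.78 and -0.46. A second rule asked for an unadjusted p under 0.05, more than 1.5-fold and at least 10 CPM. It is looser than that of the study, which asked for a log2 fold change over 1.5 in place of 1.5-fold. By the second rule 0 of the 6 genes and 0.464% of all genes were called in the fit of log2 CPM. With voom and the random effect for replicate, which is closer to the fit of the study, 2 of the 6 genes (*Myog* and *Myod1*) and 1.53% of all genes passed it. With a log2 fold change over 1.5 none of the 6 passed in either fit, where 0.0736% and 0.0888% of all genes did. The study reports more changed genes at D2 than passed with that size here. Its own calls were thus not reproduced, and these counts do not show what they held. The study also reports less Myogenin protein in differentiating KO cells by Western blot, a measure that was not made here.

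The other genes differed little or were too low to tell. At D2 the log2 fold change between KO and WT was 0.16 for *Myf5* (95% confidence interval -0.42 to 0.74), 0.02 for *Tcf12* (-0.52 to 0.56), 0.04 for *Six4* (-0.28 to 0.36) and -1.16 for *Myf6* (-2.62 to 0.31), with adjusted p = 1 for each (limma). Between same-numbered libraries the KO level of *Tcf12* was 0.965 to 1.06 times that of WT, and the KO level of *Myog* was 0.401, 0.601 and 0.566 times that of WT. In Prol and at D0 none of the 6 genes was called or had an unadjusted p under 0.05, and the shares of all genes called were 0.00566% and 0%. *Myf5* differed by -0.06 in Prol and -0.17 at D0, and *Myog* by 0.26 and -0.45 (adjusted p = 1 for each, limma). In the mean over the 3 states none was called either, where 0.00566% of all genes were.

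**Figure D3:**
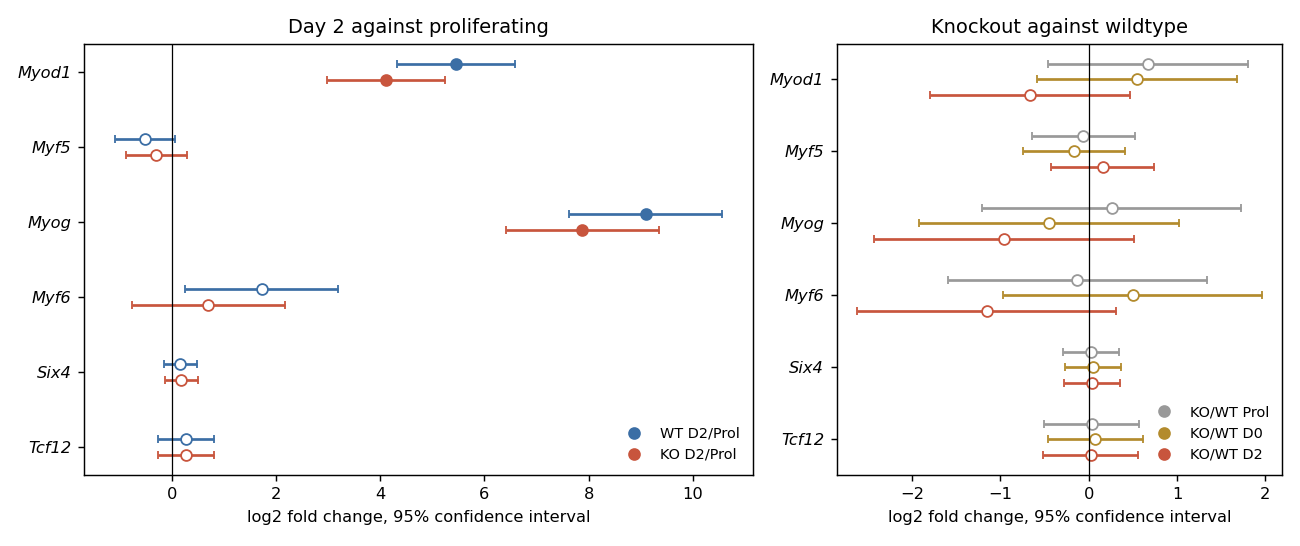
Log2 fold changes with 95% confidence intervals from limma for the 6 genes, D2 against Prol in each genotype (left) and KO against WT in each state (right). Filled points have an adjusted p under 0.05, which holds only for *Myod1* and *Myog* between D2 and Prol, and every KO/WT interval includes 0.

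In the means, *Myod1* was higher in KO than in WT before the switch to low serum and lower after it. No difference passed the test, and the share of all genes with such a pattern was not determined. In same-numbered libraries KO was 2.34, 1.36 and 1.28 times WT in Prol and 1.23, 2.31 and 1.1 times WT at D0. At D2 it was 0.478, 0.854 and 0.616 times WT. The log2 fold changes were 0.67 in Prol, 0.55 at D0 and -0.66 at D2. The change from Prol to D2 was -1.34 (standard error 0.75, unadjusted p = 0.0954) and that from D0 to D2 was -1.21 (standard error 0.75, unadjusted p = 0.127), with adjusted p = 1 for both (limma). Of the 6 genes none was called in either of these differences, and none of all genes (0%). Without WT Prol replicate 1 KO and WT differed by -0.055 in Prol, while the pairs numbered 2 and 3 were at 1.36 and 1.28 on their own. For *Myog* the same difference from Prol to D2 was -1.22 (standard error 0.98, adjusted p = 1, limma), and in single pairs KO was 0.381 to 2.43 times WT in Prol and 0.237 to 4.07 times WT at D0.

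**Figure D4:**
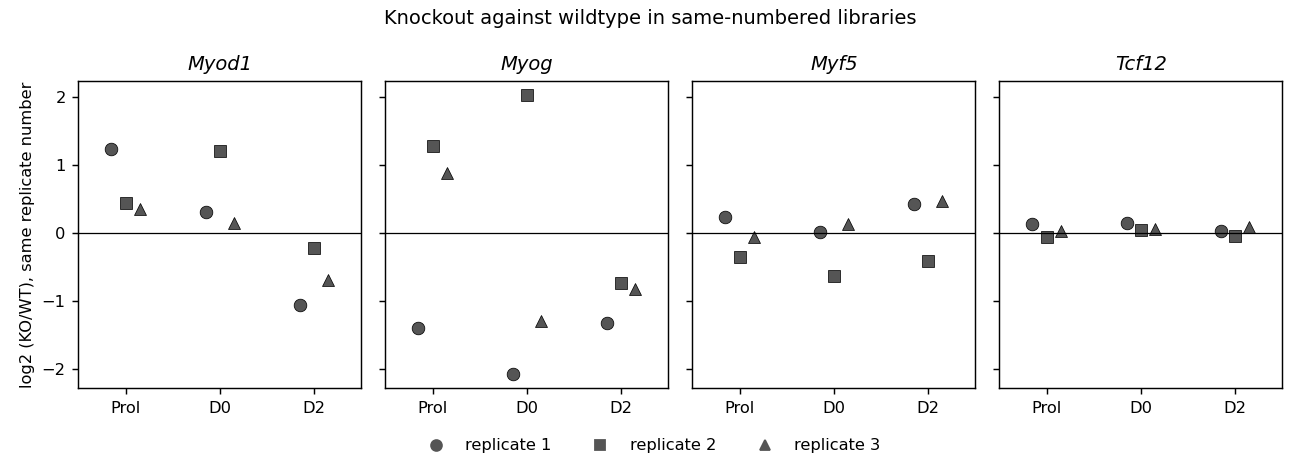
Log2 ratio of KO to WT CPM in libraries of the same replicate number (vertical axis) at Prol, D0 and D2, with 1 point for each of the 3 replicates. All 3 *Myod1* points are above 0 at Prol and D0 and below 0 at D2, the *Myog* points spread on both sides before D2 and are all below 0 at D2, and *Tcf12* stays near 0.

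Other genes of the pathway were taken from lists of known factors and targets, chosen with earlier results of these data known. Targets were picked as genes that the family switches on, so their rise at D2 was close to given by the choice. All 26 of 26 listed target genes of the MyoD family rose between Prol and D2 in both genotypes, where 16.6% of all genes rose in WT and 17.1% in KO cells. Their medians were 7.61 in WT and 6.85 in KO cells on the log2 scale, and those of all genes were -0.0123 and 0.0243. The largest changes in WT were those of *Mymk*, a membrane protein of myoblast fusion (10.45, standard error 0.83), the cardiac actin gene *Actc1* (10.20, standard error 0.71), *Lmod3*, which nucleates thin filaments (10.13, standard error 1.08), and the calsequestrin gene *Casq2* (10.10, standard error 0.88), with adjusted p from 1.71e-07 to 4.52e-06 (limma). These sizes start from few counts in Prol and so depend on the 0.5 counts added. At D0 none of the 26 was called, where 0.00566% of all genes were in WT and 0% in KO cells. In WT 20 of 26 were above 0 (median 0.61), and in KO cells 13 of 26 (median -0.01). The mean log2 CPM of the 26 was 1.46, -0.24 and 0.01 in WT D0 and 0.48, -0.31 and -0.53 in WT Prol (replicates 1 to 3). These groups overlapped, and WT D0 replicate 1 was the highest library.

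The summed level of the 26 targets was 10690, 6593 and 5507 CPM in WT D2 and 3629, 4513 and 3377 CPM in KO D2. WT replicate 1 was the highest, as it was for *Myog*, and the genotypes did not overlap, which held for 6.17% of all single genes. Between KO and WT at D2 the 26 log2 fold changes were all below 0, with a median of -0.90 where that of all genes was -0.0126, but none passed the test (adjusted p = 1 for each, limma). The 26 are not separate observations, since they were picked as targets of the same factors and share libraries. By the second rule 4 of 26 were lower in KO, as were 0.255% of all genes, and with voom and the random effect 19 of 26 were, as were 0.877% of all genes. None of the 26 passed with a log2 fold change over 1.5 in either fit. The 4 were named after their values were seen: *Tnnc1*, a troponin C (-1.05), *Ckm*, the muscle creatine kinase (-1.11), the cell cycle inhibitor gene *Cdkn1a* (-0.88) and *Mef2c* (-0.82). In Prol 15 of 26 were above 0 (median 0.14), and at D0 22 of 26 were below 0 (median -0.26). At D0 the mean log2 CPM of the 26 was 1.46, -0.24 and 0.01 in WT and -0.15, 0.79 and -0.41 in KO cells (replicates 1 to 3). The genotypes thus overlapped there, and WT D0 replicate 1 was the highest library.

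**Figure D5:**
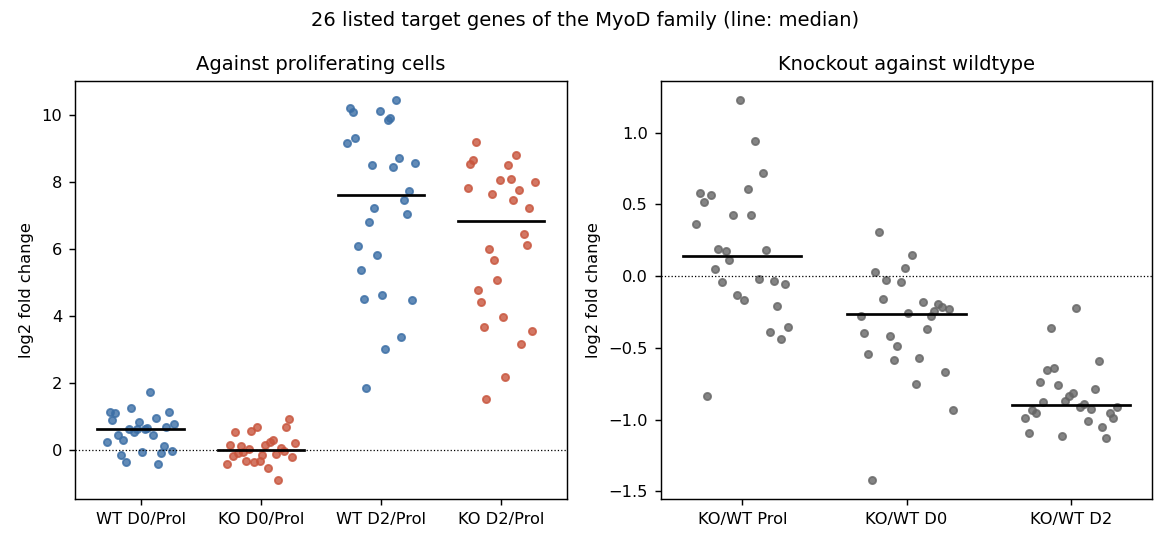
Log2 fold changes of the 26 listed target genes (points, in alphabetical order within each column) and their medians (lines), against Prol (left) and between KO and WT (right). The medians are 7.61 and 6.85 for D2 against Prol, and for KO against WT they are 0.14 in Prol, -0.26 at D0 and -0.90 at D2.

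MEF2 factors act with the MyoD family on muscle genes. Of 3 tested, *Mef2c* rose by 4.62 in WT (standard error 0.35, adjusted p = 2.99e-07) and 3.96 in KO cells (standard error 0.35, adjusted p = 1.12e-06), and *Mef2a* by 2.03 and 1.77 (limma), while *Mef2d* was not called (0.55 and 0.26). Of 14 E proteins, helix-loop-helix partners and inhibitors tested, 6 rose and 4 fell in WT cells, where 16.6% of all genes rose and 14.1% fell, and 4 rose and 4 fell in KO cells, where 17.1% rose and 15.2% fell. *Id1*, which blocks E proteins, fell, with log2 fold changes of -1.83 in WT (adjusted p = 7.77e-05) and -2.28 in KO cells (adjusted p = 1e-05, limma). Its relatives *Id2* (-1.58 in WT, -1.77 in KO) and *Id3* (-0.71 in WT, -0.84 in KO), named after their values were seen, fell as well. The repressor genes *Heyl* and *Bhlhe40* rose by 4.07 and 1.87 in WT cells, and *Mdfi*, which retains MyoD family proteins in the cytoplasm, by 2.46. The size for *Heyl* starts from a mean of 0.0562 CPM in WT Prol and so depends on the 0.5 counts added. The E protein gene *Tcf3* fell in KO cells (-0.68, adjusted p = 0.0294) and was at -0.59 in WT cells (adjusted p = 0.0595, limma), and *Tcf4* was not called (0.42 and 0.54).

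Of 13 upstream specification factors tested, 7 rose and 2 fell in WT cells, and 5 rose and 2 fell in KO cells, with medians of 1.49 and 1.36. Against the same shares of all genes, the 2 that fell are near the background. *Lbx1*, a factor of migrating limb muscle precursors, had 0 counts in the 3 WT Prol libraries and was at 0.58, 0.588 and 0.886 CPM in WT D2, at least 6.84-fold higher than a floor of 3 counts per library. The homeobox gene *Six5* rose by 1.98 and 1.81. *Pitx3* and *Dach2* rose by 3.29 and 2.72 in WT cells, from means of 0.0725 and 0.528 CPM in WT Prol. At such low counts the size for *Pitx3* depends on the 0.5 counts added. Of 14 satellite cell genes tested, 7 rose and 2 fell in each genotype, the latter again near the 14.1% and 15.2% of all genes that fell. Among them the adhesion genes *Cdh15* and *Itga7* rose by 6.08 and 4.72 in WT and by 4.78 and 4.13 in KO cells, and *Spry1* by 3.25 and 2.64. In none of these lists was a gene called between KO and WT at D2. *Mef2c* and *Cdh15* are also among the 26 targets, and *Heyl* stands in 2 lists.

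Markers of other cells moved with the D2 state too. Of 7 fibroblast markers tested, 5 rose between Prol and D2 in each genotype, where 16.6% of all genes rose in WT and 17.1% in KO cells. Among them were *Dpt*, by 8.53 in WT and 7.95 in KO cells, and *Dcn*, by 8.08 and 8.30. These 2 sizes start from means of 0.378 and 0.213 CPM in WT Prol and so depend on the 0.5 counts added. The summed level of the 7 fibroblast markers was 262 to 315 CPM in WT D2 and 257 to 462 in KO D2, and *Pdgfra* was at 101 ± 33.3 and 188 ± 92.0 CPM (SD, n = 3). None of the 7 was called between KO and WT at D2, where 0% of all genes were, and 5 of 7 were above 0. Of 5 smooth muscle markers, 4 were tested. They summed to 815 to 1516 CPM in WT D2 and 559 to 1025 in KO D2, mostly from *Acta2* (means of 991 and 729 CPM). Between Prol and D2, 1 rose and 2 fell in each genotype. Of all genes 16.6% rose and 14.1% fell in WT, and 17.1% and 15.2% in KO cells. In WT cells *Acta2* rose (1.73), *Myocd* fell (-3.69), and the mean of *Cnn1* went from 12.3 to 4.49 CPM. The 5 adipocyte markers listed of 6 summed to 16.6 to 23.6 CPM in WT D2 and to 25.6 to 30.2 in KO D2. These groups did not overlap, which held for 6.17% of all single genes. Endothelial markers were at 1.28 to 2.46 CPM in all D2 libraries. Of 4 Schwann cell markers 3 were listed, with a sum of at most 4.11 CPM, and *S100b* rose in both genotypes from at most 1 count per Prol library. The part of other cells in the *Myog* and *Myod1* values was not tested.

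The genes whose levels followed each factor most closely over the 18 libraries were found by Pearson correlation of log2 CPM among 10759 genes. The points share libraries and their scaling, and for *Myog* and *Myod1* the correlation mostly sets the 6 D2 libraries against the 12 others. *Myog* was followed by *Rbm24* (r = 0.996), *Tnnt3* (0.994) and *Actc1* (0.994), and 769 genes had r above 0.9. *Myod1* was followed by *Nckap5l* (0.98), *Cdh15* (0.976) and *Shisa2* (0.975), with 383 genes above 0.9. *Tcf12* went with *Klhdc10* (0.971), *Ap1b1* (0.963) and *Hexim1* (0.958), and *Six4* with *Golga4* (0.939), *Baz2b* (0.922) and *Dvl3* (0.921). The closest for *Myf5* were *Rhbdd2* (0.861), *Mcub* (0.848) and *Casp6* (0.839), and for *Myf6*, at its low counts, *B3galt6* (0.805), *Rdh14* (0.795) and Gm28035 (0.787), and no gene was above 0.9 for either of these factors.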

How the data were processed

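The 18 libraries (3 per genotype and state) were grouped by their labels. The authors used cutadapt for trimming of the single-end stranded reads, NextGenMap for mapping to GRCm38 transcripts, RSEM and tximport for gene counts, and TMM for scaling. The deposited values are CPM, the expected count plus 0.5 per 1000000 of the TMM-scaled total, checked on the values. Since 37.5% to 49.8% of recovered counts under 20 were whole to within 0.01, no test for whole counts was used. The recovered totals were 26437823 to 41619014, and counting error limits *Myf6* most.

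Log2 CPM were fitted with limma 3.58.1 in R 4.3.3 (lmFit, eBayes with trend), as 6 groups over 18 libraries and 17672 genes, which had expected counts above 5 throughout at least 1 group. A gene was called at a Benjamini-Hochberg adjusted p under 0.05. The study fitted voom values with sequencing lane as a random block, which is not in the labels, and asked for an unadjusted p under 0.05, a log2 fold change over 1.5 and at least 10 CPM. Here a second rule used more than 1.5-fold in place of that size, and the size of the study was added as an alternative after seeing the data. The fit was tested on simulated data for WT D2/Prol with 17672 genes, where 34 of 100 changes of 2-fold and 65 of 100 of 4-fold passed. Far fewer genes were changed there than were called in WT D2/Prol. This makes the adjusted threshold stricter in the simulation, so these shares do not give the recovery in the data. Ratios used an exact permutation test (scipy 1.17.1). Alternatives were library totals, median-of-ratios scaling, 1 CPM added, no filter, voom weights, a fixed or random replicate block, only the groups compared, each library left out, and the longest transcript as gene length. Leaving out replicate 1 of both D2 groups was added after seeing the data.

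The genes and lists were chosen with earlier results of these data known. The genes named were the members, for each the 3 genes of highest correlation among those with at least 10 CPM in 1 library, up to 4 genes per list with the largest change among those called in WT D2/Prol, and those said to be named afterwards. *Mef2d*, *Tcf3*, *Tcf4*, *Pdgfra* and the markers are named beyond this rule for their roles. Promoter sequences are from RefSeq (GRCm38.p6) and annotation from GENCODE M21.

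Same-numbered libraries deviated together across genes with correlations of 0.151 to 0.645 in 7 of the 9 comparisons of groups. The numbers may thus mark pairs there, a hint from the data and not from the labels. The main fit did not use them, so its p-values leave out any such pairing. Only the fits with a replicate block and the ratios of same-numbered libraries used them. In WT D2/Prol and WT D2/D0 the correlation was 0.0393 and 0.01 for replicate 3.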

Additional observations from a re-analysis of the deposited data

Results flagged for a closer look

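The *Myod1* difference between KO and WT had opposite signs in Prol and at D2, and it passed the test in neither state. The share of all genes with such a pattern was not determined. Every same-numbered pair was higher in KO in Prol and at D0 and lower in KO at D2, and the mean log2 ratio changed by -1.34 from Prol to D2 and by -1.21 from D0 to D2. The differences were tested in limma, with unadjusted p = 0.0954 and 0.127 and adjusted p = 1, so they did not pass. With voom and a random replicate block the unadjusted p was 0.0268 and 0.0429 and the adjusted p remained 1. At lower counts *Myf6* had every pair higher in KO at D0 and lower at D2, but its Prol pairs were at 2.91, 0.306 and 0.855. Its mean log2 ratio changed by -1.65 from D0 to D2 (unadjusted p = 0.111, adjusted p = 1, limma), where the third D2 pair was at 0.991. The cause was not tested. Groups of 3 libraries are too small for a test of single outlying libraries.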

How the results depend on the processing

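The calls of *Myog* and *Myod1* between D2 and Prol or D0 held in every alternative run, with log2 fold changes of 6.38 to 9.55 for *Myog* and 3.67 to 6.05 for *Myod1*, and none of the 6 genes was called between KO and WT in any. Library totals moved the median of all genes between D2 and Prol to 0.15 in WT and 0.156 in KO cells. The number of genes called in WT D2/D0 was 2 to 4, and in WT D2/Prol 2 to 3. With the replicate block, 4 were called in WT D2/D0, where *Tcf12* was added (0.40, adjusted p = 0.0346) and *Myf5* kept (adjusted p = 0.0183), and 3 in WT D2/Prol, where *Myf6* was added (adjusted p = 0.0334). With voom and a random block, *Tcf12* was not called in WT D2/D0 (0.40, adjusted p = 0.0769), *Myf5* was (0.0179), and *Myf6* was called in WT D2/Prol (0.0197). In both comparisons the libraries numbered 1 and 2 deviated together (correlations of 0.269 to 0.47), while those numbered 3 hardly did (0.0393 and 0.01). Neither block changed any other call. *Myf5* in KO D2/D0 was called without KO D2 replicate 3 (-0.77, adjusted p = 0.0427).

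Several small differences changed sign when 1 library was left out, none of them called, and the cause was not tested. For KO/WT, *Myf5* ranged from -0.19 to 0.023 in Prol, -0.30 to 0.014 at D0 and -0.16 to 0.33 at D2, *Six4* from -0.086 to 0.13 and *Tcf12* from -0.091 to 0.14 at D2, *Myod1* from -0.055 to 1.27 in Prol, and *Myog* from -0.21 to 0.71 in Prol and -1.15 to 0.28 at D0. The change of KO/WT from D0 to D2 ranged from -1.24 to 0.20 for *Myog*. For D0/Prol, *Myod1* ranged from -0.50 to 0.82 in WT and -0.35 to 0.54 in KO cells, and *Myog* from -0.17 to 1.15 in KO cells. *Myf6* in KO D2/D0 ranged from -0.82 to 0.39, the latter without KO D2 replicate 1 or without replicate 1 of both D2 groups. The ratios kept their direction without any 1 library. The fit of only the groups compared could not be made for the mean over the 3 states, which uses all groups. At this depth *Myf6* has too few counts for changes under several-fold to be seen.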
